A study of Mus musculus with 2 samples.

Results

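The Ifi200 family, clustered on chromosome 1, and the Schlafen family, clustered on chromosome 11 but for Slfnl1, are groups of related mouse genes. Here 8 of their genes were followed in apoptotic osteoblasts, dying cells of the kind that lays down bone, from old and from young mice. The members were chosen by symbol, as Ifi203, Ifi204, Ifi207 and Mndal for the Ifi200 family and Slfn2, Slfn5, Slfn8 and Slfn9 for the Schlafen family, among the 55487 genes of the deposited table. Each symbol matched 1 identifier in the GENCODE M21 annotation of GRCm38. Of the 8 members, 6 averaged 1 FPKM or more across the pair of libraries (fragments scaled to the length of a gene and to the size of the library), and Ifi207 and Slfn5 did not.

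The old group was 1 library of apoptotic osteoblasts from old mice, with a treatment label of day 5, and the young group was 1 library from young mice, with a treatment label of day 0. The protocol field names no treatment, so age and day cannot be told apart. In both groups adherent cells grown out of bone pieces were passaged 3 times, kept in osteogenic medium for 3 days and exposed to ultraviolet light for 0.5 h, after which over 90% of them were stained by Trypan Blue, which living cells keep out. Strain, sex, age in months and the number of animals behind a library are not given in the labels. With 1 library per age no difference below has a replicate check, no test was run, and each ratio compares these libraries.

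Ifi200 proteins carry a HIN domain, which binds DNA, and most also carry a pyrin domain, through which they join other proteins. Several act as sensors of DNA or as nuclear regulators of transcription and cell growth, and Ifi204 (p204) is known in mouse as a co-activator of Runx2 during osteoblast differentiation. Schlafen proteins share a core that binds RNA, and long members add a helicase-like part. They are known for restraint of immune cell growth and for cleavage or protection of transfer RNA. Both families are induced by type I interferon in many mouse cells.

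The steps of the FPKM values imply a library size of 18114336 reads for the old library and 16333396 reads for the young library. The reads recovered over the genes summed to 18000106 in the old and 16230455 in the young library. The old library is set over the young one in every ratio, and brackets of the form (95% counting interval a to b) hold exact Clopper-Pearson limits. These cover counting error only and hold no spread between animals, cultures or libraries. Copies made by PCR are not independent molecules, so where reads are such copies the limits are too narrow. A difference is given as log2(FPKM + 1), old minus young, a scale that understates the change of low genes, and a gene was called higher or lower at 2-fold on this scale. Of the 12561 genes that averaged 1 FPKM or more, which are called measured here, 248 (1.97%) were called higher in the old library and 109 (0.868%) lower, and the median difference was -0.07. Of 10 osteoblast markers 9 were measured, at unequal levels. Among them was Col1a1, the main collagen chain of bone, at 6788 FPKM in the old and 8568 FPKM in the young library. Runx2, the transcription factor of the bone lineage, was at 72.7 FPKM in the old and 92.1 FPKM in the young library, while Bglap, the gene of osteocalcin and a late marker, had 6 reads in the old and 3 in the young library. Alpl, the alkaline phosphatase of mineralising cells, was at 3.28 FPKM in the old and 2.78 FPKM in the young library, and Ibsp, a mineral-binding matrix protein, at 5.90 FPKM in the old and 6.31 FPKM in the young library, both low beside the collagen.

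Of the 6 measured members, 4 were called higher in the old library and 0 lower, where 1.97% and 0.868% of all genes were. These were Slfn2, Slfn8, Ifi204 and Ifi203. Mndal and Slfn9, the most abundant member of each family, were also higher in the old library but stayed under 2-fold. The members were chosen with earlier results of these data known. The measured family genes outside them, Ifi211 at 0.74 and Slfn3 at -0.08, were not called. The differences of the 6 ran between 0.74 and 2.44 with a median of 1.09, while the 5th and 95th percentiles of all genes were -0.56 and 0.62. In bulk RNA, fewer cells of a type and less RNA per cell cannot be told apart.

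**Figure D1:**
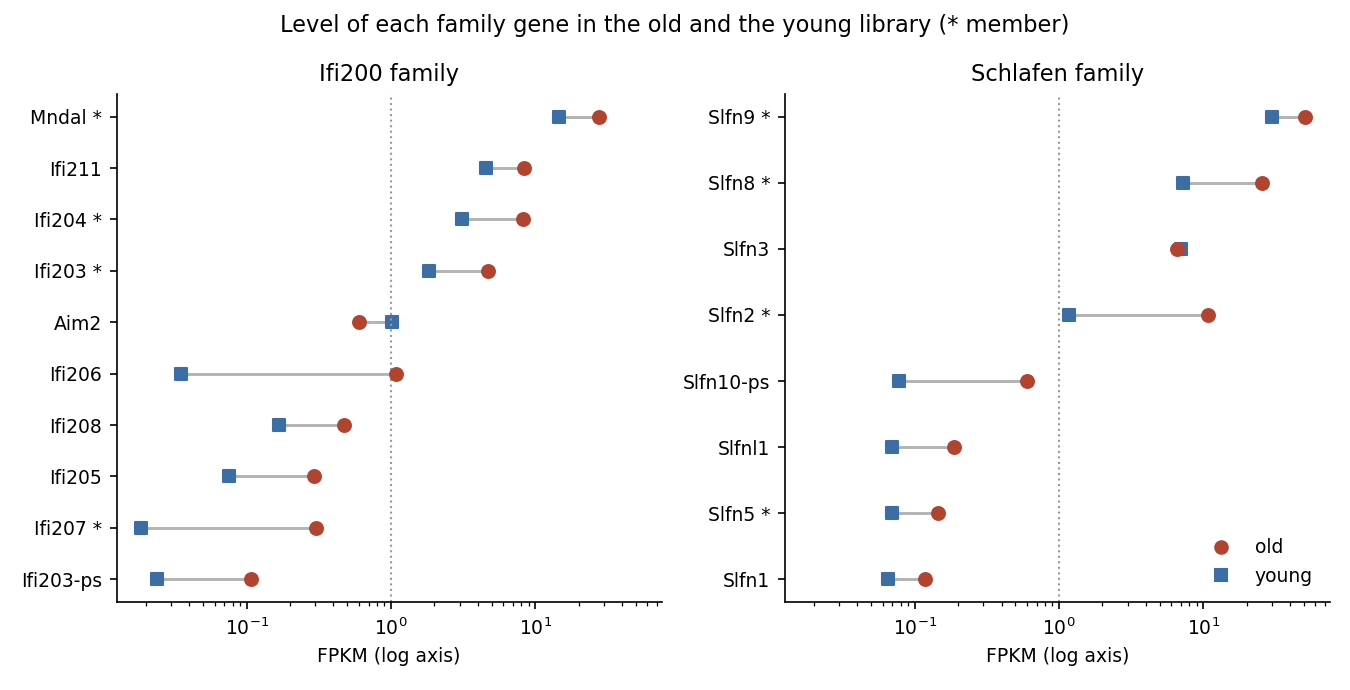
FPKM of each Ifi200 (left) and Schlafen (right) gene with reads in both libraries, on a log axis. Circles are the old library, squares the young library, the dotted line is 1 FPKM and stars mark the members. The old library lies to the right for every gene drawn except Aim2 and Slfn3.

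Among the Schlafen genes, Slfn2 differed most. Slfn2 (chr11:83065112-83070678, plus strand) encodes a short Schlafen protein that keeps mouse T cells quiescent and shields transfer RNA from cleavage. Its level was 10.8 FPKM in the old library, from 326 reads, against 1.18 FPKM in the young library, from 32 reads. The FPKM ratio was 9.19 (95% counting interval 6.38 to 13.7) and the difference was 2.44, the 13th highest of the 12561 genes. In the old library Slfn2 stood above 30.4% of the protein-coding genes that passed the filter, and in the young library above 1.496% of them.

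Slfn8 (chr11:83002158-83020810, minus strand) and Slfn9 (chr11:82978390-82991830, minus strand) encode long Schlafen proteins of 910 codons each, and their coding sequences are identical at 92.7% of 2730 bases. Slfn8 rose to 25.8 FPKM in the old library (1317 reads), against 7.27 FPKM in the young library (335 reads). Its ratio was 3.54 (95% counting interval 3.14 to 4.01) and its difference 1.69. Slfn9 was the most abundant gene of both families per length, with 50.8 FPKM in the old library (3606 reads) and 30.05 FPKM in the young library (1924 reads). Its ratio of 1.69 (95% counting interval 1.60 to 1.79) and its difference of 0.74 fell short of the 2-fold threshold. Of the reads of both genes, Slfn8 took 26.8% in the old library (95% counting interval 25.5 to 28.0) and 14.8% in the young library (95% counting interval 13.4 to 16.4), and these intervals do not overlap.

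Reads that fit more than 1 gene could blur this pair. Of the 50-base words cut from the transcripts, 15.8% of those of Slfn8 and 15.2% of those of Slfn9 also occurred in another gene, mostly in each other and in the pseudogene Slfn10-ps that lies between Slfn8 and Slfn2. How the authors' counting treated such reads is not given in the sources used here. Slfn2 shared 3.08% of its words.

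Slfn5 (chr11:82951349-82964840, plus strand), a long nuclear Schlafen protein, was close to the limit of detection. It had 7 reads in the old library and 3 in the young library, 0.146 FPKM against 0.0693 FPKM, and the counting interval of its ratio of 2.10 ran between 0.480 and 12.6. A difference was therefore not detectable at this depth. Of its exon bases, 8.84% are covered on the opposite strand by Slfn5os, and without a statement that strand was used the reads of these genes cannot be told apart.

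The other Schlafen genes did not all move with the members. Slfn3, a Schlafen protein of middle length, was at 6.58 FPKM in the old library (263 reads) and 7.02 FPKM in the young library (253 reads), a ratio of 0.937 (95% counting interval 0.786 to 1.12) and a difference of -0.08, next to the median of all genes. Slfn2 made up 55.3% of the reads of Slfn2 and Slfn3 in the old library and 11.2% in the young library. Slfn10-ps had 34 reads in the old and 4 in the young library, a ratio of 7.66 (95% counting interval 2.73 to 29.7), and it shares 21.8% of its words, with Slfn9 and Slfn8. In the old library Slfn1 had 4 reads, Slfn4 3 and Slfnl1, which lies apart on chromosome 4, 6, against 2, 0 and 2 in the young library. Slfn14 was listed at 0 in both libraries, and 3 reads, the floor set for a count of 0, would be 0.0447 FPKM in the old and 0.0496 FPKM in the young library.

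**Figure D2:**
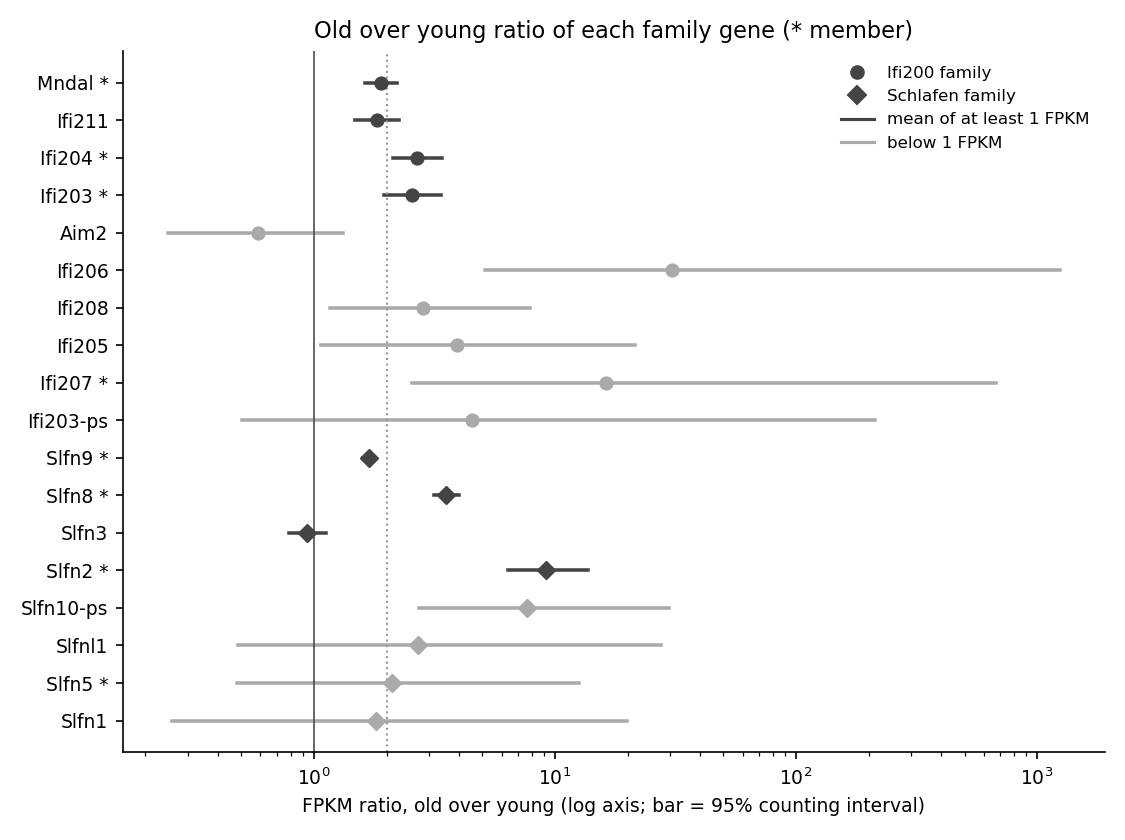
FPKM ratio, old over young, of each family gene with reads in both libraries, on a log axis, with bars for the 95% counting interval. Circles are Ifi200 genes, diamonds Schlafen genes, grey marks genes that were not measured, the solid line is a ratio of 1 and the dotted line a ratio of 2. Slfn2 at 9.19 and Slfn8 at 3.54 stand right of the dotted line with narrow bars, and Slfn3 at 0.937 crosses the solid line.

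The promoters of the Schlafen members are shown because Slfn8 and Slfn9 share a match to the interferon-stimulated response element, a sequence through which interferon turns genes on, while Slfn2 has none. The letters searched were GAAA, any 2 bases and GAAA again, on both strands, within RefSeq windows of GRCm38.p6 that reach 250 bases before and 50 bases after a start. Such a match occurred in 3.44% of all 32851 windows and in 3.99% of the 27025 genes. The bases before the start are printed in the direction of the gene with the match in capitals. They are chr11:83020811-83021060 on the minus strand for Slfn8, chr11:82991831-82992080 on the minus strand for Slfn9 and chr11:83064862-83065111 on the plus strand for Slfn2.
Slfn8: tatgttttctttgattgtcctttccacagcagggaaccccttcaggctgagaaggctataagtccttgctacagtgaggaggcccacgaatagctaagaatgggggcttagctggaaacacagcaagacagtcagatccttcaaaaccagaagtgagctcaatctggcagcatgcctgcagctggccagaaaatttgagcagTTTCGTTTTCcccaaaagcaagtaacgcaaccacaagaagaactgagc
Slfn9: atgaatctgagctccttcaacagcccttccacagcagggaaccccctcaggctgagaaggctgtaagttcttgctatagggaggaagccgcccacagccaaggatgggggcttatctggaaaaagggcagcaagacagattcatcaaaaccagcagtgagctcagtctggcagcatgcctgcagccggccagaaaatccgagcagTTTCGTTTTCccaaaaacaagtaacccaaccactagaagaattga
Slfn2: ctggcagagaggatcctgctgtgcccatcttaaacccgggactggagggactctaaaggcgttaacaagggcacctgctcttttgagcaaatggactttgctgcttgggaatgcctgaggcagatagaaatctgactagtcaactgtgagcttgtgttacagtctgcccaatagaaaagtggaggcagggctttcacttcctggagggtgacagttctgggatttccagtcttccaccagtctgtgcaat

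In Slfn8 and Slfn9 the same 10 letters stood at -48 to -39 and at -45 to -36, counted with the first base of the transcript as 0, and the match read on the reverse strand. RefSeq has a second start for Slfn8, from which the same genomic site stands at -136 to -127. The windows of Slfn8 and Slfn9 were identical at 81.4% of 311 aligned positions. Slfn8 differed by 1.69 and Slfn9 by 0.74 on the log2 scale with the same match in place. Slfn2, with the greatest difference, had no match, and neither had Slfn3, whose level was near equal in both libraries. No match says only that these letters are not in the window. Slfn5 had a match farther out, at -155 to -146, within chr11:82951935-82951968 on the plus strand, and it is shown to complete the matches of the Schlafen members.
Slfn5: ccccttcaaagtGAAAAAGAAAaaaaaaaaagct

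Among the Ifi200 members, Ifi204 and Ifi203 were called higher in the old library. Ifi204 (chr1:173747293-173766943, minus strand) encodes p204, reported to sense DNA and to signal through STING. Ifi204 reached 8.29 FPKM in the old library (297 reads), against 3.10 FPKM in the young library (100 reads). Its ratio was 2.68 (95% counting interval 2.13 to 3.39) and its difference 1.18. Ifi203 (chr1:173920407-173942672, minus strand), a nuclear HIN protein of up to 871 codons, reached 4.72 FPKM in the old library (218 reads), against 1.85 FPKM in the young library (77 reads). Its ratio was 2.55 (95% counting interval 1.96 to 3.35), and its difference of 1.01 lay just inside the threshold.

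Mndal (chr1:173849126-173942491, minus strand), named for its likeness to the human nuclear antigen MNDA, was the most abundant Ifi200 gene per length. It had 27.5 FPKM in the old library (506 reads) and 14.6 FPKM in the young library (241 reads), a ratio of 1.89 (95% counting interval 1.62 to 2.22). Its difference of 0.88 lay just outside the threshold. The annotated mean length of Mndal gave no whole reads, so its read numbers rest on a length of 1014 bases, the only length up to its longest transcript that did. Its annotated span encloses Ifi211 and reaches into Ifi203, and 4.27% of its exon bases also lie in exons of other genes on the same strand.

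Ifi207 (chr1:173723427-173741747, minus strand), the longest coding sequence of the family at 978 codons, had 18 reads in the old library and 1 in the young library. Its level was 0.303 FPKM in the old and 0.0186 FPKM in the young library. The ratio of 16.2 had a counting interval of 2.56 to 676, so its size was hardly fixed by these reads, and with a mean under 1 FPKM it was not counted among the calls.

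Ifi211, the measured Ifi200 gene outside the members, was also higher in the old library but under 2-fold. It had 8.32 FPKM in the old library (269 reads) and 4.56 FPKM in the young library (133 reads), a ratio of 1.82 (95% counting interval 1.48 to 2.26) and a difference of 0.74. Its coding sequence matches that of Ifi204 at 95.9% of the aligned bases, and 72.9% of its words occurred in other genes, so its reads and those of Ifi204, Ifi205 and Mndal are uncertain. Of the words of the members, 103 of 412 were shared in Mndal, 25.2% in Ifi204, 12.4% in Ifi203 and 5.96% in Ifi207.

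Of the 10 Ifi200 genes under 1 FPKM, 7 were higher in the old library, 1 was lower and 2 had no reads. The share of all genes under 1 FPKM that were higher in the old library was not calculated, so this count has no background. Over the whole table, 20925 genes had a value above 0 in the old and 19892 in the young library. Ifi206 had 34 reads in the old library and 1 in the young library, a ratio of 30.7 (95% counting interval 5.14 to 1246). Ifi213 had 19 reads in the old library and 0 in the young library. Its level in the old library was 5.71 times the floor of 3 reads in the young library, which leaves out the counting error of the 19 reads. In the old library Ifi208 had 22 reads, Ifi205 13, Ifi203-ps 5 and Ifi214 1, against 7, 3, 1 and 0 in the young library. The ratio was 2.83 for Ifi208 (95% counting interval 1.17 to 7.85) and 3.91 for Ifi205 (95% counting interval 1.07 to 21.4). Ifi208 and Ifi213 match at 96.9% of the aligned coding bases, so reads could pass between them.

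Aim2, the cytosolic DNA receptor that builds an inflammasome, was the 1 lower gene, with 11 reads in the old and 17 in the young library. Its ratio was 0.583 (95% counting interval 0.247 to 1.32), so a difference was not detectable at this depth. Ifi202b was listed at 0 in both libraries, with a floor of 0.0976 FPKM in the old and 0.108 FPKM in the young library. Ifi209 was also listed at 0, with a floor of 0.0658 FPKM in the old and 0.0730 FPKM in the young library.

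Summed over each family, the Ifi200 genes had 52.2 FPKM in the old and 25.4 FPKM in the young library, a ratio of 2.06, and the Schlafen genes 95.05 FPKM in the old and 45.8 FPKM in the young library, a ratio of 2.08. The sums were alike in ratio but not in make-up. Mndal held 52.7% of the Ifi200 sum in the old and 57.3% in the young library. The counting intervals of the read shares overlapped between the libraries in each of the 4 Ifi200 gene pairs compared, with Ifi211 set beside Ifi204 only. Overlap does not show equal shares, and these pairs had fewer reads than most Schlafen pairs. Ifi204 took 37.0% of the reads of Ifi204 and Mndal in the old and 29.3% in the young library. Of the reads of Ifi203 and Ifi204, Ifi203 took 42.3% in the old and 43.5% in the young library. In the old library the Schlafen sum was divided into 53.4% for Slfn9, 27.1% for Slfn8, 11.4% for Slfn2 and 6.93% for Slfn3. In the young library Slfn9 held 65.6%, Slfn8 15.9%, Slfn2 2.57% and Slfn3 15.3%. In all 6 Schlafen pairs compared, the read shares had intervals that did not overlap between the libraries. These pairs are combinations of the same 4 genes and are not separate results. How often other gene pairs with as many reads would also not overlap was not calculated, so this count has no background. The order of the 8 measured genes by level also shifted: Slfn9, Mndal and Slfn8 led in both libraries, while Slfn2 was the 4th of both families together in the old library and the 8th in the young library. Neighbours in that order within 1 library, such as Ifi211 and Ifi204 at 8.32 and 8.29 FPKM in the old library, cannot be ranked without replicates.

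**Figure D3:**
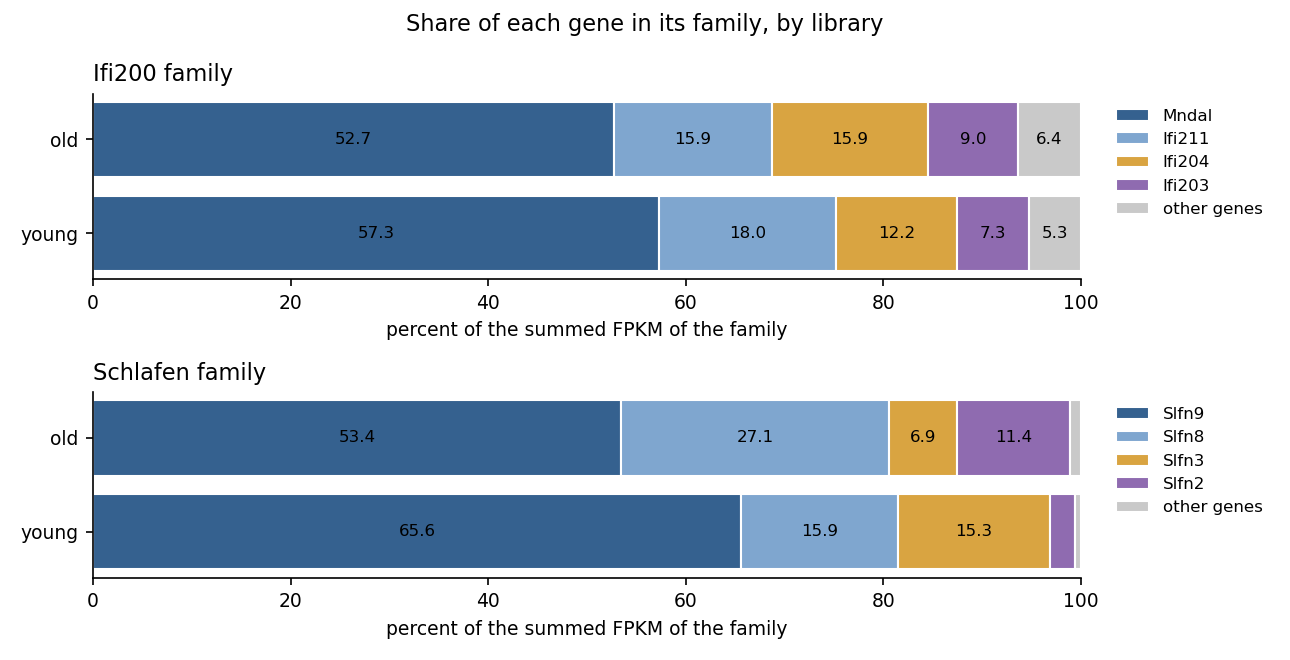
Share of each gene in the summed FPKM of its family, in percent, with the old library above the young one. In the Ifi200 bars Ifi204 (15.9% old, 12.2% young) and Ifi203 (9.03% old, 7.28% young) take more of the old library and Mndal and Ifi211 less. In the Schlafen bars Slfn8 (27.1% old, 15.9% young) and Slfn2 (11.4% old, 2.57% young) take more of the old library and Slfn9 and Slfn3 less.

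The matches to the interferon motif in the Ifi200 promoters are shown because 7 of the genes carry the same 10 letters. Of the 12 Ifi200 genes with a RefSeq window, 9 had a match, and of the 7 members of both families with a window (all but Ifi204), 6 had one, against 3.99% of all genes. The match stood at -41 to -32 in Ifi207, at -36 to -27 in Mndal, at -35 to -26 in Ifi203 (in the second of its windows), at -37 to -28 in Ifi211, at -40 to -31 in Ifi206 and at -58 to -49 in Ifi208. It stood farther out in Ifi213 (-73 to -64), in Ifi214 (-79 to -70) and in Ifi205 (-134 to -125, with a second match at 23 to 32 past the start), which are not printed. Ifi211, and Ifi205 in its first match, carry GAAATTGAAA in place of the shared letters, and Aim2, Ifi209 and Ifi202b had no match. The second window of Mndal held another match, at -54 to -45, and the first window of Ifi203 held none. The printed stretches lie at chr1:173741829-173741862, chr1:173880202-173880235, chr1:173942506-173942539, chr1:173913062-173913095 and chr1:173491337-173491370, all on the minus strand, and at chr1:173673595-173673628 on the plus strand, in the order printed. The match is in capitals.
Ifi207: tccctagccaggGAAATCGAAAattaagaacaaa
Mndal: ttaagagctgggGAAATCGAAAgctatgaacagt
Ifi203: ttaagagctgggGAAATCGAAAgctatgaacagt
Ifi211: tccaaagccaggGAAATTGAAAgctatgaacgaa
Ifi206: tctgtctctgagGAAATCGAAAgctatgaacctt
Ifi208: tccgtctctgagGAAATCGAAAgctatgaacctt

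The exact word GAAATCGAAA occurred in the windows of 16 of the 27025 genes (0.0592%), and 7 of these 16 were Ifi200 genes. The word was singled out after the matches were seen, and the promoters are related copies: the windows of Mndal and Ifi203 were identical at 90.7% of aligned positions and those of Ifi207 and Ifi211 at 85.9%. The word on the matching strand of Slfn8 and Slfn9 was GAAAACGAAA, found in 29 genes (0.107%). A second motif, TTCNNNGAA, the activation sequence of type II interferon, was in 9.55% of all genes, in 1 Ifi200 gene (Ifi202b) and in 0 of the 7 members. A match is a description of letters and shows no binding.

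**Figure D4:**
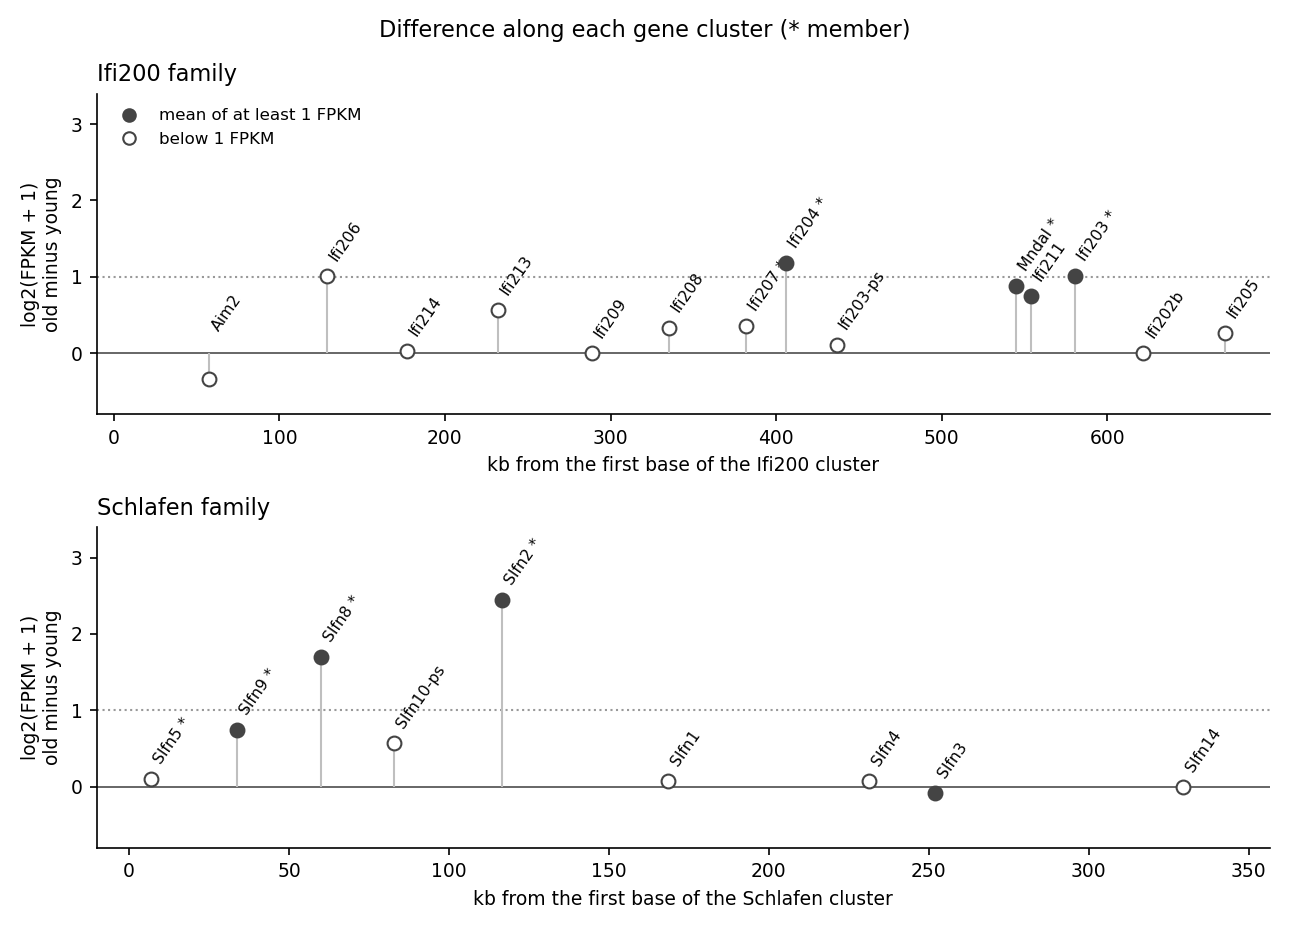
Difference, log2(FPKM + 1), old minus young, of each gene against its position in kb from the first base of its cluster, for the Ifi200 genes (top) and the Schlafen genes (bottom). Filled circles are measured genes, open circles genes below that level, the dotted line marks 2-fold and stars mark the members. Slfn9, Slfn8 and Slfn2, at 0.74, 1.69 and 2.44, lie in the first part of the Schlafen cluster, and Slfn3, at -0.08, lies in the last.

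Along the chromosomes, the Ifi200 genes span 681 kb and the Schlafen genes 335 kb. The members Slfn5, Slfn9, Slfn8 and Slfn2 stand at one end of the Schlafen cluster, with Slfn1, Slfn4, Slfn3 and Slfn14 at the other. The measured genes named here from outside the clusters did not reach 2-fold. Ap2b1, 12.3 kb beyond the Schlafen cluster, was at 73.2 FPKM in the old and 73.5 FPKM in the young library, a difference of -0.01. Nle1 and Rad51d, on the other side, differed by 0.38 and 0.20. Dusp23, 718 kb before the Ifi200 cluster, differed by 0.07, Tagln2, also before it, by 0.11 and Fh1, after it, by -0.25.

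The members lay among the interferon-induced genes in size. Of 23 measured effectors of the interferon response, 16 were called higher in the old library and 0 lower. Of all measured genes, 1.97% were called higher and 0.868% lower, which is also the background for the lists below. The median difference of the effectors was 1.31, beside 1.09 for the 6 measured members and -0.07 for all genes. Both this list and the members were chosen with earlier results of these data known, so their likeness is a description and no separate support. Zbp1, which senses nucleic acid in the Z form, was at 14.9 FPKM in the old and 0.875 FPKM in the young library, and Mx1, an antiviral GTPase, at 8.85 FPKM in the old and 1.11 FPKM in the young library. Slfn2 at 2.44 ranked close to Ifi27l2a at 2.51 and above Mx1 at 2.22. Oas2, which makes the activator of RNase L, was at 30.6 FPKM in the old and 6.88 FPKM in the young library.

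Genes of interferon signalling moved less. Of 14 measured, 1 was called higher and 0 lower, with a median of 0.04. Irf7, the interferon-induced transcription factor, rose to 37.9 FPKM in the old library, against 15.9 FPKM in the young library. Stat2 and Irf9, which act together at the motif above, had differences of 0.75 and 0.72, under the 2-fold threshold. The 20 genes of type I and type III interferons themselves held 4 reads in the old library and 0 in the young library, and Ifng, the type II interferon, had none in either.

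Genes of the sensing of cytosolic DNA, a role reported for Ifi204 and not tested here, were mixed. Of 8 measured, 2 were called higher and 0 lower, with a median of -0.01. Besides Zbp1, which both lists hold, the gene called was Tmem173, the gene of STING, at 7.36 FPKM in the old and 3.06 FPKM in the young library, a difference of 1.04. Cgas, the enzyme that activates STING, was at 5.16 FPKM in the old and 6.19 FPKM in the young library, and Irf3, the factor activated by STING, differed by -0.34.

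The inflammasome genes, partners of Aim2, were mostly too low to measure. Of 9, 3 passed the filter, 0 were called in either direction, and Casp4, Gsdmd and Il18 differed by 0.42, 0.37 and -0.35. Pycard, the adaptor of Aim2, was listed at 0 in both libraries. Among 8 genes tied to transfer RNA and translation under interferon, the field of the Schlafen proteins, 0 were called and the median was 0.24. Ang, the ribonuclease from which mouse Slfn2 protects transfer RNA, was at 2.12 FPKM in the old library (35 reads) and 1.34 FPKM in the young library (20 reads), with a counting interval of the ratio of 0.886 to 2.88. Eif2ak2, the kinase PKR, differed by 0.36.

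**Figure D5:**
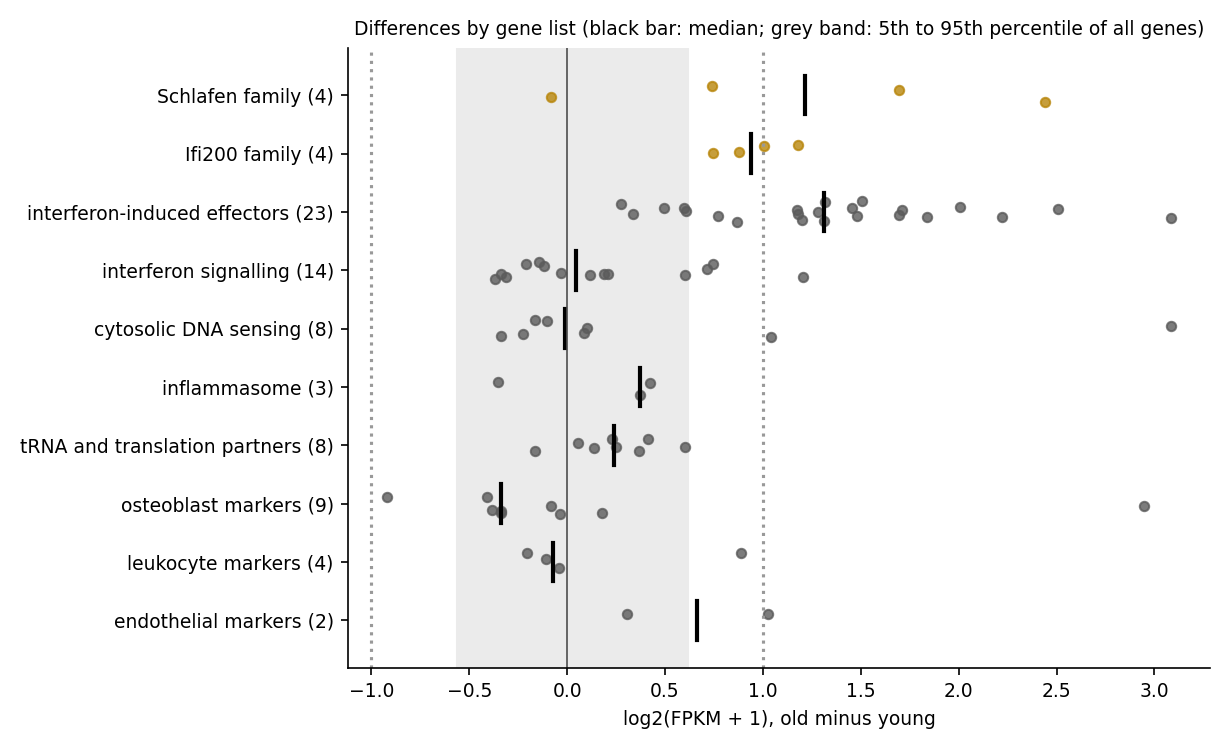
Difference, log2(FPKM + 1), old minus young, of each measured gene, by list, with the number of such genes in brackets. Black bars are medians, dotted lines mark 2-fold and the grey band holds the 5th to 95th percentile of all genes, -0.56 to 0.62. Medians of the Schlafen (1.22), Ifi200 (0.94) and interferon-induced lists (1.31) lie right of the band, and that of interferon signalling (0.04) within it.

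Several members are known from macrophages and lymphocytes, so the markers of such cells are given beside them. Of 18 leukocyte markers, 4 were measured and 0 called, 5 were listed at 0 in both libraries, and the sum of the list was 41.6 FPKM in the old and 40.1 FPKM in the young library. Lyz2, a lysozyme of myeloid cells, made up the greatest part, at 18.4 FPKM in the old and 21.3 FPKM in the young library. Cd74, the invariant chain of class II antigen presentation, was at 7.94 FPKM in the old and 8.63 FPKM in the young library, and Cd68, a lysosomal protein of macrophages, at 4.36 FPKM in the old and 4.51 FPKM in the young library. Adgre1 and Itgam, markers of macrophages and myeloid cells, were listed at 0 in both libraries, and Ptprc, the general leukocyte marker CD45, had 0 reads in the old and 1 in the young library. Csf1r had 6 reads in the old and 1 in the young library, and Tyrobp had 1 read in the old and 0 in the young library. Over the whole list, 12 markers had reads in the old and 8 in the young library. Cd14, a receptor for bacterial lipid that mesenchymal cells can also make, was the leukocyte marker with the greatest difference, at 9.15 FPKM in the old and 4.49 FPKM in the young library. Of 8 endothelial markers, 2 were measured, and Flt1 was called higher, at 35.1 FPKM in the old and 16.8 FPKM in the young library. Eng, the other measured one, was at 2.42 FPKM in the old and 1.77 FPKM in the young library. Of those not measured, Vwf had 17 reads in each library, and Pecam1 had 6 in the old and 13 in the young library. Tek had 7 reads in the old and 2 in the young library. Cdh5 and Kdr had 2 reads each in the old and 0 in the young library, and Emcn was listed at 0 in both. The part of such cells in the members' differences was not tested. Of 9 measured osteoblast markers, 1 was called higher, Spp1 (osteopontin), and 0 lower, with a median of -0.34, and Sp7, the osteoblast transcription factor, was at 28.9 FPKM in the old and 55.5 FPKM in the young library.

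The genes averaging 10 FPKM or more whose difference was nearest to the members' median of 1.09 were Slit2 at 1.07, H2-D1 at 1.11 and Cyp26b1, Hmga1 and Ssc5d at 1.12 each. H2-D1, a class I antigen-presenting chain, was at 661 FPKM in the old and 305 FPKM in the young library. The likeness is of a single difference between 2 libraries.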

How the data were processed

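The deposited table gives FPKM values by the authors for 1 old and 1 young library. The submitters' processing notes name fastp, STAR, HTSeq, edgeR and mm10; roles, versions, annotation release, filters and strand use: not given in the sources used here. Genes were named through GENCODE M21 (55227 of 55487 identifiers). Dividing FPKM by the value of 1 read for a gene's rounded mean transcript length gave whole reads, within 0.01, for 97.6% of values above 0 in each library. Differences are log2(FPKM + 1), over genes averaging 1 FPKM or more. Intervals are exact binomial limits at 95%, and the floor of a gene without reads is 3 reads. The calculation was tested on simulated data. Shared sequence was counted in words of 50 bases taken every 25 bases. Promoter windows came from RefSeq on GRCm38.p6 and were aligned end to end, a mismatch or gap taking off what a match adds. Python 3.11.15, pandas 2.3.3, numpy 2.4.6, scipy 1.17.1 and matplotlib 3.10.9 were used.

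The members and gene lists were chosen with earlier results of these data known, and the list of interferon genes was added after values had been seen. Named are all members and family genes, up to 4 genes with the greatest differences from each list, defining cell markers, up to 2 measured coding genes on either side of a cluster and the 5 genes nearest to the members' median; single values of some of these are not reported here. Alpl, Ibsp, Bglap, Pecam1, Cdh5, Kdr, Tek, Vwf, Emcn, Pycard and Ifng were named outside that rule, after their values had been seen. Alternatives covered the pseudocount, the filter and the scaling.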

Additional observations from a re-analysis of the deposited data

How the results depend on the processing

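With 1 library per age, leaving out a replicate was not possible. No paired analysis was possible because each age has 1 library. All 8 members were higher in the old library under each pseudocount and scaling run, but most of these runs could not change a direction. The same pseudocount added to both values keeps the direction, and centring on a median below 0 raises every difference. For Slfn5 a difference was not detectable at this depth. Of all 12561 measured genes, 40.4% were higher in the old library under the main setting. Of the 6 measured members, 4 were called higher under the main setting and also with a pseudocount of 0.1, without a filter, with FPKM rescaled without the 10 most abundant genes and with differences centred on the median of all genes. With a pseudocount of 5 there were 2 (Slfn2 and Slfn8), and the median was 0.73, since a higher pseudocount shrinks the differences of low genes. When genes had to average 10 FPKM there was 1 (Slfn8), because 3 members were left. Over all genes, 408 were called higher and 236 lower with a pseudocount of 0.1, 101 higher and 20 lower with a pseudocount of 5, and 106 higher and 27 lower at 10 FPKM. Rescaling raised all levels, so that 13390 genes passed the filter, and gave 365 higher and 192 lower. Among members' own differences, Ifi207 was 1.76 with a pseudocount of 0.1, against 0.35 in the main setting, Slfn2 was 3.10 with 0.1 and 1.36 with 5, and Ifi203, close to the threshold, was 0.50 with 5. Depth limits Slfn5, Ifi207 and Aim2, with at most 18 reads in a library, to wide intervals.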
